A study of Saccharomyces cerevisiae with 10 samples.

Results

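GCN4 and the genes that control its translation were followed as 10 genes, chosen by name: GCN4 itself, GCN1, GCN20 and GCN2, which sense amino acid shortage, SUI2, GCN3, GCD1, GCD2 and GCD6, which encode subunits of the translation factors eIF2 and eIF2B, and PCL5, a cyclin of Gcn4 breakdown. All 10 of 10 were found among the 5449 yeast genes tested. Each had 1 probe set, and its intensity lay at least 36.7 times above the background limit of the array on all 10 arrays.

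The series compared budding yeast (Saccharomyces cerevisiae) without SUA5, an enzyme gene of the pathway that makes the tRNA base t6A, with wild-type cells, on 10 Affymetrix arrays with 1 RNA sample each. The wild type was the haploid laboratory strain BY4742 (n = 3). The sua5D strains were haploid spores of mating type a from a BY4743 diploid with 1 disrupted copy of SUA5, and were sampled after restreaking 1 (n = 4, labelled 35 generations after sporulation) or restreaking 12 (n = 3, labelled 300 generations). The labels give no treatment other than growth to mid-log phase in YPD, a rich liquid medium that supplies amino acids, and the samples of a group are described as independent clones. The question was how the loss of SUA5, early and after long propagation, bears on gene expression.

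General amino acid control is the route by which yeast adjusts to a lack of amino acids. Uncharged tRNA activates the kinase Gcn2, with the help of Gcn1 and Gcn20 on the ribosome. Gcn2 phosphorylates the alpha subunit of eIF2, encoded by SUI2, and phosphorylated eIF2 inhibits its exchange factor eIF2B, so that less eIF2 is ready for initiation. Short reading frames upstream of GCN4 then let more ribosomes reach the GCN4 start, and Gcn4 protein switches on genes of amino acid synthesis. The arrays measured RNA abundance, so the translation of GCN4 and the phosphorylation of eIF2 were not observed here.

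The labels held in the data. SUA5 read 506 to 532 in the wild type and 0.342 to 5.22 on the sua5D arrays. All 7 measured mating type a markers were higher and all 4 mating type alpha markers lower on the sua5D arrays. The summed level of the a markers was 289 to 352 in the wild type, 5664 to 7166 at restreaking 1 and 6206 to 6553 at restreaking 12. That of the alpha markers was 18150 to 19020, 1062 to 1296 and 964 to 1057. Every comparison with the wild type below is therefore also one between mating types, and the loss of SUA5 and the mating type cannot be told apart. At restreaking 1, replicates 3 and 4 expressed the lysine gene LYS2 and the methionine gene MET17 (means of 2921 and 4780), and replicates 1 and 2 did not (12.5 and 12.6). In the wild type LYS2 read 10.9 to 17.4 and MET17 4176 to 4381, and at restreaking 12 they read 10.8 to 53.7 and 8.09 to 96.9, so these strain markers differ between groups as well.

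GCN4 RNA was moderately higher in sua5D cells. The intensities of GCN4 were 4524, 4634 and 4574 on the wild-type arrays, 5497, 6048, 5828 and 5765 at restreaking 1, and 5593, 5363 and 5454 at restreaking 12. Both sua5D groups lay above every wild-type array, and they overlapped each other. GCN4 rose 1.26-fold at restreaking 1 (log2 change 0.34, SE 0.04, adjusted p = 9.71e-07) and 1.19-fold at restreaking 12 (log2 change 0.26, SE 0.04, adjusted p = 3.1e-05). All changes are differences of log2(intensity + 16), and adjusted p-values are from limma with Benjamini-Hochberg adjustment over all 5449 genes and a threshold of 0.05. The rise of GCN4 was small beside those of many genes: at restreaking 1, 31.9% of all genes tested had a larger positive change, and at restreaking 12, 35.4% did.

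PCL5 had the largest change of the 10 genes in both comparisons with the wild type. Pcl5 is the cyclin that directs the kinase Pho85 to phosphorylate Gcn4, which marks Gcn4 for breakdown, and PCL5 is itself a transcriptional target of Gcn4. PCL5 read 702, 663 and 663 in the wild type. At restreaking 1 it read 3424, 3370, 3276 and 3237, and at restreaking 12 it read 3192, 3107 and 3100. No sua5D array came near the wild-type range, and the sua5D groups did not overlap each other either. PCL5 rose 4.83-fold at restreaking 1 (log2 change 2.27, SE 0.04, adjusted p = 6.39e-15) and 4.55-fold at restreaking 12 (log2 change 2.19, SE 0.04, adjusted p = 2.6e-14). In each of these comparisons 103 genes (1.89% of those tested) had a larger positive change.

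**Figure D1:**
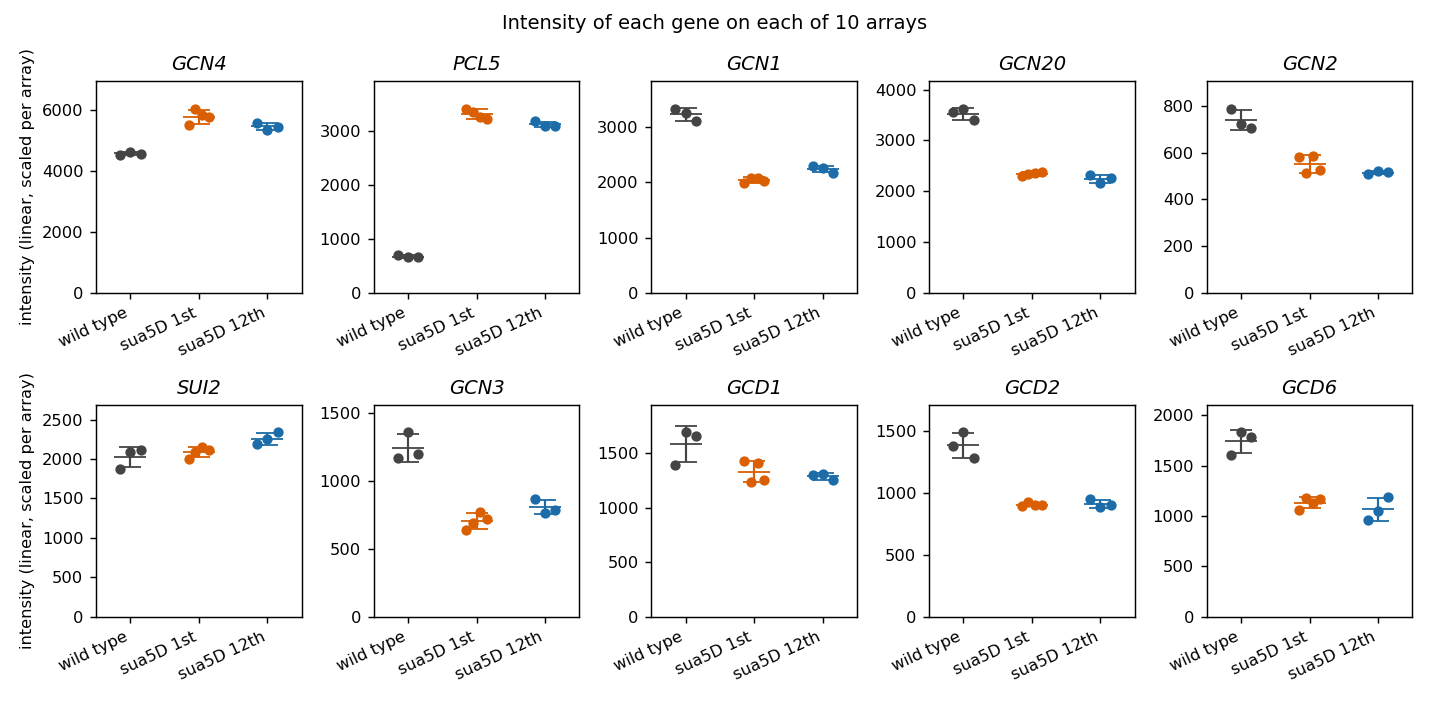
Intensity (linear, scaled per array by the authors) of each of the 10 genes on every array, for the wild type, sua5D after restreaking 1 and sua5D after restreaking 12; points are arrays, horizontal lines are group means and bars are ±1 SD, with 3, 4 and 3 arrays. GCN4 and PCL5 lie above the wild type on all 7 sua5D arrays, whereas GCN1, GCN20, GCN2, GCN3, GCD2 and GCD6 lie below it on all 7.

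The genes of the sensor, by contrast, were lower in sua5D cells. GCN1 encodes the large ribosome-bound protein that passes the signal of uncharged tRNA to Gcn2. GCN1 read 3325, 3246 and 3095 in the wild type, 1977, 2083, 2082 and 2015 at restreaking 1, and 2285, 2253 and 2167 at restreaking 12. The 3 groups did not overlap, with the wild type highest and restreaking 1 lowest. GCN1 fell 1.57-fold at restreaking 1 (log2 change -0.66, SE 0.04, adjusted p = 2.56e-09) and 1.44-fold at restreaking 12 (log2 change -0.52, SE 0.04, adjusted p = 6.15e-08).

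GCN20 encodes the ATP-binding partner of Gcn1. GCN20 read 3551, 3626 and 3395 in the wild type, 2299, 2343, 2358 and 2385 at restreaking 1, and 2313, 2164 and 2253 at restreaking 12. Every sua5D array lay below the wild type. GCN20 fell at restreaking 1 (log2 change -0.58, SE 0.04, adjusted p = 5.74e-09) and by 1.57-fold at restreaking 12 (log2 change -0.65, SE 0.04, adjusted p = 4.79e-09).

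GCN2 encodes the eIF2 kinase itself. GCN2 read 787, 722 and 706 in the wild type, 579, 512, 585 and 527 at restreaking 1, and 507, 519 and 518 at restreaking 12. The wild-type arrays stood clear of all sua5D arrays, which overlapped between restreakings. GCN2 fell 1.33-fold at restreaking 1 (log2 change -0.41, SE 0.06, adjusted p = 2.03e-05) and 1.42-fold at restreaking 12 (log2 change -0.51, SE 0.06, adjusted p = 5.86e-06).

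SUI2, the gene of the eIF2 subunit that Gcn2 phosphorylates, differed least from the wild type among the 10 genes. SUI2 read 1877, 2088 and 2113 in the wild type, 1997, 2092, 2148 and 2114 at restreaking 1, and 2185, 2254 and 2337 at restreaking 12. The wild type and restreaking 1 overlapped, and restreaking 12 lay above both. At restreaking 1 the log2 change was 0.04 (95% interval -0.06 to 0.15, adjusted p = 0.4), and after quantile normalization it was 0.14 and passed (adjusted p = 0.0134). At restreaking 12 SUI2 rose 1.11-fold (log2 change 0.16, SE 0.05, adjusted p = 0.0121). That call was lost when array medians were set equal (log2 change 0.04, adjusted p = 0.489), without replicate 3 of restreaking 12 (adjusted p = 0.0566) and without replicate 1 of the wild type (adjusted p = 0.0707).

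The 4 followed genes of eIF2B, the guanine nucleotide exchange factor of eIF2, were lower in sua5D cells at both restreakings. GCN3 encodes the alpha subunit, through which phosphorylated eIF2 exerts its inhibition. GCN3 read 1167, 1356 and 1199 in the wild type, 634, 690, 772 and 721 at restreaking 1, and 867, 765 and 786 at restreaking 12. All sua5D arrays lay below all wild-type arrays. GCN3 fell 1.74-fold at restreaking 1 (log2 change -0.80, SE 0.07, adjusted p = 1.58e-07), the largest fall among the 10 genes there, and 1.53-fold at restreaking 12 (log2 change -0.61, SE 0.08, adjusted p = 5.74e-06). At restreaking 1 it was lower in replicates 1 and 2 (mean 662) than in replicates 3 and 4 (mean 746). These pairs also differ in LYS2 and MET17. The pairs did not overlap for GCN20, SUI2 and PCL5 either, which with GCN3 makes 4 of the 10 genes. The same held for 17 of 39 known Gcn4 target enzymes outside lysine synthesis. The share over all genes was not counted, so the 4 of 10 cannot be set against it. GCN3 had the largest pair difference among the 10 (log2 0.17).

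GCD2, a regulatory subunit of eIF2B like Gcn3, read 1379, 1490 and 1285 in the wild type, 891 to 925 on the 4 arrays of restreaking 1, and 886 to 949 on the 3 of restreaking 12. It fell 1.52-fold at restreaking 1 (log2 change -0.60, SE 0.05, adjusted p = 1.02e-07) and 1.51-fold at restreaking 12 (log2 change -0.59, SE 0.06, adjusted p = 2.73e-07). The levels of the 2 sua5D groups were within their spread. GCD6, the catalytic subunit, read 1608, 1829 and 1783 in the wild type, 1054, 1173, 1127 and 1166 at restreaking 1, and 964, 1047 and 1185 at restreaking 12. It fell 1.53-fold (log2 change -0.61, SE 0.07, adjusted p = 1.43e-06) and 1.63-fold (log2 change -0.70, SE 0.07, adjusted p = 8.33e-07), the largest fall among the 10 genes at restreaking 12. The lowest wild-type array was above the highest sua5D array for both genes.

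GCD1, which forms the catalytic part of eIF2B together with Gcd6, fell least of the eIF2B genes followed. GCD1 read 1390, 1690 and 1660 in the wild type, 1423, 1236, 1408 and 1255 at restreaking 1, and 1301, 1311 and 1253 at restreaking 12. The lowest wild-type array lay within the range of restreaking 1 and above that of restreaking 12. GCD1 fell 1.18-fold at restreaking 1 (log2 change -0.24, SE 0.07, adjusted p = 0.00574) and 1.22-fold at restreaking 12 (log2 change -0.29, SE 0.07, adjusted p = 0.00314).

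Counted together, 9 of the 10 genes passed the threshold at restreaking 1 against wild type, 2 higher and 7 lower. Of all genes tested 79.0% passed there, 41.5% higher and 37.5% lower. At restreaking 12 against wild type all 10 passed, 3 higher and 7 lower, where 77.8% of all genes passed, 40.9% higher and 36.9% lower. The arrays of the compared groups did not overlap for 8 of the 10 genes at restreaking 1 and for 10 of 10 at restreaking 12, against 76.7% and 79.8% of all genes. The share of genes called was thus near that of the whole array, and a call against the wild type does not set these genes apart. The median log2 change of the 10 was -0.50 at restreaking 1 and -0.52 at restreaking 12, and that of all genes was 0.03 in both comparisons. The same 7 genes were lower at both restreakings, and GCN4 and PCL5 were higher at both. These comparisons share the wild-type arrays.

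**Figure D2:**
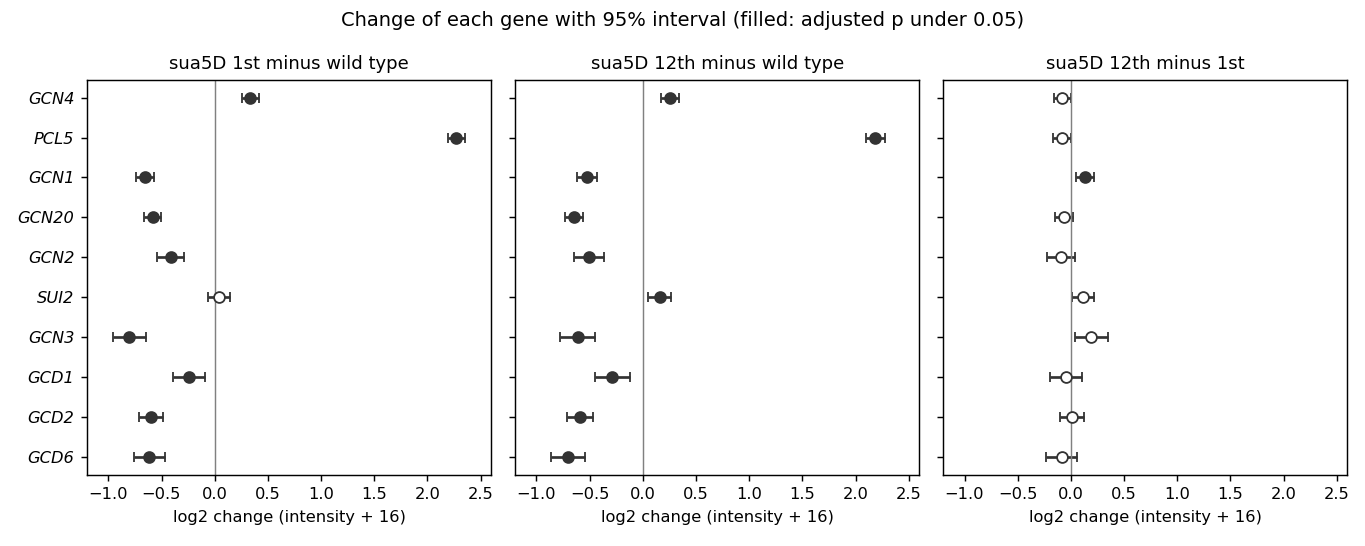
Log2 change of log2(intensity + 16) for each of the 10 genes in the 3 comparisons, with 95% intervals from limma; filled points passed an adjusted p of 0.05 and open points did not. PCL5 lies at 2.27 and 2.19 against the wild type, GCN4 at 0.34 and 0.26, 7 genes lie below 0, and between the restreakings the changes of all 10 genes lie between -0.09 and 0.19.

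Between restreaking 12 and restreaking 1 the 10 genes changed little. GCN1 was the only one called, 1.10-fold higher at restreaking 12 (2235 ± 60.9, SD, n = 3, against 2039 ± 52.2, SD, n = 4, log2 change 0.13, SE 0.04, adjusted p = 0.0399). Among all genes 15.9% were called in this comparison, 6.83% higher and 9.07% lower. The call of GCN1 was not stable: it was lost under both other scalings and without replicate 1, 3 or 4 of restreaking 1 or any 1 array of restreaking 12 (highest adjusted p = 0.126). The arrays of the restreakings did not overlap for GCN1, SUI2 and PCL5, 3 of the 10 genes, against 28.9% of all genes.

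For the other 9 genes the intervals bound the difference between restreakings. For GCN4 the log2 change from restreaking 1 to 12 was -0.08 (95% interval -0.16 to -0.0025, adjusted p = 0.151). Without replicate 1 of restreaking 1 it passed (log2 change -0.10, adjusted p = 0.0496). For PCL5 it was -0.09 (95% interval -0.17 to -0.0028, adjusted p = 0.151). GCN3 had the largest value, 0.19 (95% interval 0.04 to 0.35, adjusted p = 0.0873), and passed without replicate 3 of restreaking 1 (adjusted p = 0.0486) and without replicates 3 and 4 together (log2 change 0.28, adjusted p = 0.0288). Unadjusted p-values were under 0.05 for 5 of the 10 genes.

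The size of the GCN4 change depended on how arrays were put on one scale. The authors' scaling left the median of the tested genes higher on the sua5D arrays. Setting array medians equal moved the median change of all genes down by 0.109 (restreaking 1) and 0.111 (restreaking 12), and quantile normalization moved it down by 0.103 and 0.102. The log2 change of GCN4 at restreaking 1 was then 0.22 (adjusted p = 0.000293) with equal medians and 0.48 (adjusted p = 1.36e-09) after quantile normalization. At restreaking 12 it was 0.14 (adjusted p = 0.013) and 0.46 (adjusted p = 5.42e-09). Relative to the median of all genes GCN4 was higher by 0.30, 0.30 and 0.56 at restreaking 1 and by 0.22, 0.22 and 0.53 at restreaking 12, as deposited, with equal medians and after quantile normalization. The direction and the call of GCN4 held under each of these scalings, as did those of PCL5 and of the 7 lower genes.

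**Figure D3:**
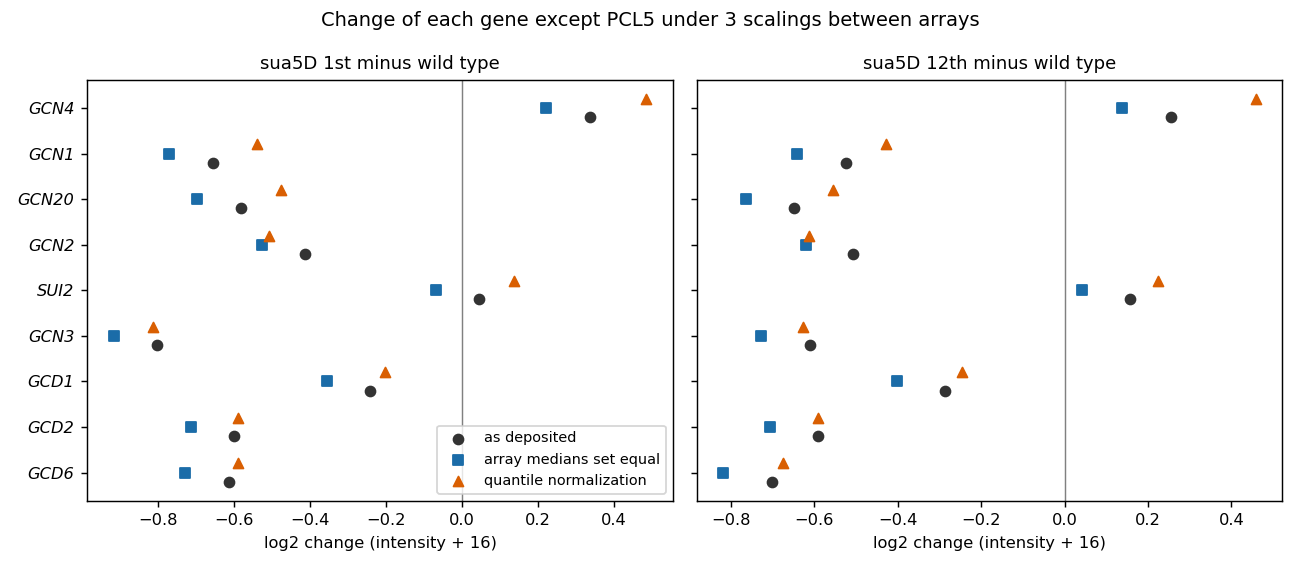
Log2 change against the wild type of 9 genes (PCL5, which lay between 2.07 and 2.27, is left out to keep the scale) at each restreaking under 3 scalings between arrays: circles as deposited, squares with array medians set equal, triangles after quantile normalization. GCN4 stays above 0 and the 7 lower genes stay below it, while SUI2 at restreaking 1 moves from 0.04 to -0.07 and 0.14.

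The remaining genes of the pathway were taken from lists by role. The gamma and beta subunits of eIF2, GCD11 and SUI3, were lower at restreaking 1 (1.17-fold, adjusted p = 0.00167, and 1.10-fold, adjusted p = 0.00701), and did not pass at restreaking 12 (adjusted p = 0.0723 and 0.843). Neither passed after quantile normalization at restreaking 1 (adjusted p = 0.139 and 0.373). With equal array medians, by contrast, GCD11 and SUI3 were both called lower at restreaking 1 and at restreaking 12. From restreaking 1 to 12 SUI3 had a log2 change of 0.13 (adjusted p = 0.0498), a call lost under both other scalings (adjusted p = 0.0637 and 0.119) and without any of 8 single arrays (highest adjusted p = 0.218). With the remaining regulatory subunit gene GCD7, all 5 eIF2B genes were lower at restreaking 1, where 37.5% of all genes were lower. GCD7 fell 1.14-fold there (834 against 950, adjusted p = 0.00319). At restreaking 12 it read 1014 and did not pass (log2 change 0.09, adjusted p = 0.123), and it was higher than at restreaking 1 (log2 change 0.28, adjusted p = 0.00394). GCD7 was the only eIF2B gene called between the restreakings, 20% of the 5, beside 15.9% of all genes.

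Among 8 genes of Gcn2 and its regulators, 3 were higher and 4 lower at restreaking 1, and 1 was higher and 4 lower at restreaking 12. These are 37.5% higher and 50% lower, then 12.5% higher and 50% lower, beside 41.5% and 37.5%, then 40.9% and 36.9%, of all genes. After quantile normalization 4 were higher at restreaking 1 and 3 at restreaking 12, with 4 lower at each. YIH1 encodes a protein that competes with Gcn2 for Gcn1 and so restrains the kinase. YIH1 read 1485, 1251 and 1340 in the wild type, 1817, 1708, 1867 and 1871 at restreaking 1, and 1487, 1444 and 1505 at restreaking 12. It rose 1.33-fold at restreaking 1 (adjusted p = 9.16e-06), was not called at restreaking 12 (log2 change 0.12, adjusted p = 0.0702), and fell 1.22-fold between the restreakings (adjusted p = 0.0057). GLC7, the gene of a type 1 phosphatase that removes phosphate from eIF2, also rose at restreaking 1 (1.16-fold, adjusted p = 0.000163). It fell 1.10-fold from restreaking 1 to 12 (adjusted p = 0.0297), a call lost without any of 5 single arrays (highest adjusted p = 0.153). TAP42, a phosphatase regulator downstream of TOR, rose 1.35-fold at restreaking 1 (adjusted p = 2.76e-05) and 1.37-fold at restreaking 12 (adjusted p = 3.86e-05).

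Of 10 genes for eIF3 and factors of start codon choice, 9 were lower at restreaking 1 and 8 at restreaking 12, and none was higher, where 37.5% and 36.9% of all genes were lower. With equal array medians all 10 were lower in each comparison, and after quantile normalization 6 were. SUI1, the gene of eIF1, fell 1.54-fold at restreaking 1 (adjusted p = 1.88e-07) and 1.51-fold at restreaking 12 (adjusted p = 7.28e-07). FUN12, the gene of eIF5B, fell 1.35-fold and 1.30-fold (adjusted p = 5.24e-07 and 4.5e-06). PRT1, of eIF3, fell 1.26-fold and 1.28-fold (adjusted p = 1.72e-06 and 2.69e-06). TIF5, the gene of eIF5, fell 1.26-fold at restreaking 1 (adjusted p = 3.22e-06), and TIF11, the gene of eIF1A, fell at restreaking 12 (log2 change -0.26, adjusted p = 0.000127). From restreaking 1 to 12 TIF5 had a log2 change of 0.13 (adjusted p = 0.042), a call lost under both other scalings (adjusted p = 0.052 and 0.0763) and without any of 7 single arrays. GCD10 and GCD14, which encode the enzyme that methylates an adenosine of initiator tRNA and other tRNAs, both fell, by 1.46-fold and 1.37-fold at restreaking 1 (adjusted p = 1.46e-07 and 5.68e-07) and by 1.32-fold and 1.30-fold at restreaking 12 (adjusted p = 6.19e-06 and 8.26e-06).

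**Figure D4:**
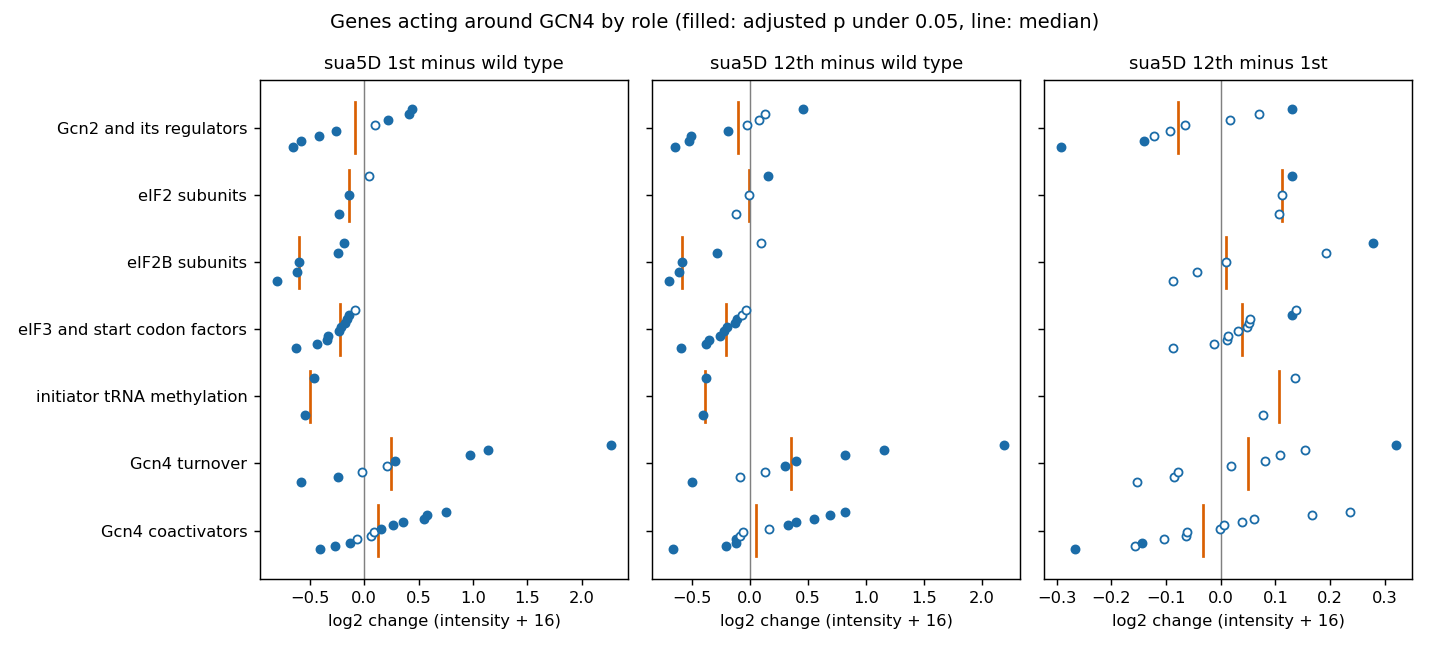
Log2 change of each gene in 7 role lists around GCN4 for the 3 comparisons (the horizontal scale differs between panels); filled points passed an adjusted p of 0.05, open points did not, and the vertical bar is the list's median. Against the wild type the eIF2B medians lie at -0.60 and -0.59, and the eIF3 and start codon medians at -0.22 and -0.21.

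Besides PCL5, the list of Gcn4 turnover held 7 genes. SSN8, the cyclin of the Mediator kinase Ssn3, which also phosphorylates Gcn4, rose from 167 to 385 at restreaking 1 (2.20-fold, adjusted p = 3.39e-09) and to 390 at restreaking 12 (2.23-fold, adjusted p = 7.06e-09). CDC34, the ubiquitin-conjugating enzyme gene, rose 1.96-fold at restreaking 1 and 1.76-fold at restreaking 12 (adjusted p = 2.64e-06 and 3.07e-05). SKP1, of the SCF ubiquitin ligase, rose 1.22-fold at restreaking 1 and 1.31-fold at restreaking 12 (adjusted p = 8.84e-05 and 8.35e-06). CDC53, the cullin of the same ligase, fell at both restreakings (log2 changes -0.58 and -0.50, adjusted p = 8.74e-07 and 8.82e-06). PHO85, the kinase gene that Pcl5 serves, did not pass at restreaking 1 (719 against 735, adjusted p = 0.877). It was called higher at restreaking 12 against the wild type (adjusted p = 0.0108), a call lost with equal medians (adjusted p = 0.0792) and without replicate 2 of either group (highest adjusted p = 0.0609). From restreaking 1 to 12 PHO85 was called higher by 1.25-fold (adjusted p = 0.0314), a call lost without any of 6 single arrays (highest adjusted p = 0.132).

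Among 12 coactivators of Gcn4, 6 were higher and 3 lower at restreaking 1, and 5 were higher and 4 lower at restreaking 12. The higher shares of 50% and 41.7% were near those of all genes, 41.5% and 40.9%, and the counts depended on scaling. At restreaking 1, MED2 of Mediator and SWI1 of the SWI/SNF remodeller lost their calls under both other scalings. After quantile normalization the coactivator MBF1 lost its lower call at restreaking 1 and was called higher at restreaking 12 (log2 change 0.07, adjusted p = 0.0493), and SNF2 lost its call at restreaking 12 (adjusted p = 0.0904). TRA1, the subunit of the SAGA complex that activators bind, rose 1.68-fold and 1.61-fold (adjusted p = 1.46e-08 and 8.73e-08). GCN5, the histone acetyltransferase of SAGA, rose 1.47-fold at both (adjusted p = 1.45e-06 and 3.37e-06). ADA2, its partner, fell 1.32-fold at restreaking 1 and 1.59-fold at restreaking 12 (adjusted p = 0.000128 and 2.05e-06). The Mediator subunit genes GAL11 and PGD1 rose at restreaking 1 (log2 changes 0.36 and 0.58, adjusted p = 1.08e-05 and 1.3e-05). At restreaking 12 they were higher than the wild type as well (log2 changes 0.40 and 0.82, adjusted p = 8.44e-06 and 9.05e-07). NGG1, of SAGA, was lower at restreaking 12 than at restreaking 1 by 1.11-fold (adjusted p = 0.0469), a call lost without any of 8 single arrays (highest adjusted p = 0.182).

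The enzymes that Gcn4 is known to switch on were mostly higher in sua5D cells. Of 47 such genes listed, 45 were measured. At restreaking 1, 38 were higher and 2 lower, with a median log2 change of 0.56. At restreaking 12, 34 were higher and 5 lower, with a median of 0.52. The 5 lower became 3 without replicate 2 or 3 of restreaking 12 or replicate 2 of the wild type. As shares of the list, 84.4% and 75.6% were higher, where 41.5% and 40.9% of all genes were. With equal array medians 35 were higher and 4 lower at restreaking 1, and 31 and 7 at restreaking 12, and after quantile normalization 39 and 2, and 37 and 3. The list was drawn up with earlier results of these data known, so its direction is a description and not independent evidence.

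Within that list the branches differed in how far they moved. The 8 arginine genes were all higher at both restreakings, with medians of 1.72 and 1.62, where 41.5% and 40.9% of all genes were higher. ARG1, the argininosuccinate synthetase gene, read 269.5 to 324.5 in the wild type, 4522 to 4956 at restreaking 1 and 4107 to 4277 at restreaking 12. ARG1 was 15.3-fold and 13.8-fold higher (adjusted p = 1.87e-15 and 7.05e-15). ARG7, of ornithine synthesis, rose 4.70-fold and 4.57-fold (adjusted p = 3.33e-15 and 1.18e-14). The 8 aromatic genes were also all higher at both, with medians of 0.60 and 0.56, and the 7 branched-chain genes were higher in 7 and 6 cases, with medians of 0.52 and 0.53. With equal array medians TRP5 of the aromatic genes lost its call at restreaking 12 (adjusted p = 0.327) and LEU9 of the branched-chain genes at restreaking 1 (adjusted p = 0.21).

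The lysine branch had the lowest median at restreaking 12. Of its 6 genes, 4 were higher and none lower at restreaking 1 (median 0.36). At restreaking 12, 2 were higher and 3 lower (median -0.17). The count at restreaking 1 depended on its replicates 3 and 4, which express LYS2. Without them LYS9 was lower than the wild type (log2 change -0.31, adjusted p = 0.000384). LYS21 lost its call (adjusted p = 0.111), while LYS1, LYS12 and LYS20 kept theirs. With equal medians LYS21 also lost its restreaking 1 call (adjusted p = 0.241). At restreaking 12 LYS9 (adjusted p = 0.046) lost its call after quantile normalization (adjusted p = 0.076) and without any of 6 single arrays. Its arrays did not overlap there (1220 to 1248 against 1674 to 1867 in the wild type). The spread in limma is shared by all 3 groups, including the split restreaking 1. Without replicates 1 and 2 of restreaking 1 the same log2 change of -0.53 had an adjusted p of 2.44e-07, and without replicates 3 and 4 of 7.56e-07. Of 6 histidine genes 3 were higher and 1 lower in each comparison with the wild type, and HIS1, of the opening step of the pathway, and HIS7 did not pass. Beside these lysine and histidine counts, 41.5% of all genes were higher and 37.5% lower at restreaking 1. At restreaking 12 these shares were 40.9% and 36.9%. HIS4 lost its call at restreaking 12 with equal array medians (adjusted p = 0.118). SNZ1 and SNO1, of pyridoxine synthesis, changed most outside the arginine branch. SNZ1 rose from 364 ± 50.2 (SD, n = 3) to 4506 ± 260 (SD, n = 4) at restreaking 1 and 4177 ± 88.7 (SD, n = 3) at restreaking 12, which is 11.9-fold and 11.1-fold (adjusted p = 3.34e-14 and 1.16e-13). SNO1 read 14.6, 15.1 and 22.5 in the wild type, close to the background limits of 12.3, 17.5 and 13.1, so its fold is imprecise. It read 1104 to 1367 on the sua5D arrays of restreaking 1 and 1187 to 1308 on those of restreaking 12.

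**Figure D5:**
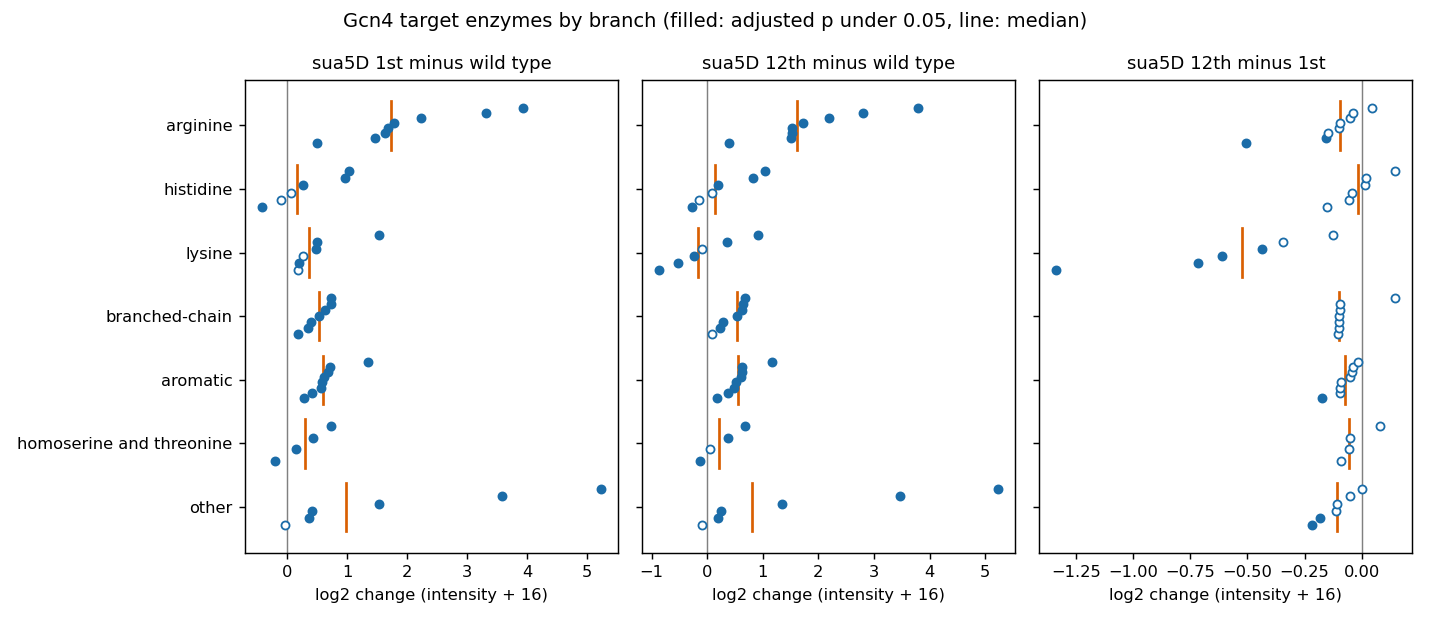
Log2 change of 45 enzyme genes known as Gcn4 targets, by branch of metabolism, in the 3 comparisons (the horizontal scale differs between panels); filled points passed an adjusted p of 0.05, open points did not, and the vertical bar is the branch median. The arginine branch has medians of 1.72 and 1.62 against the wild type, and the lysine branch is the lowest between the restreakings, with a median of -0.52.

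From restreaking 1 to 12, 9 of the 45 target enzymes were called, all lower, and 4 of these 9 belong to lysine synthesis. That is 20% of the list, where 9.07% of all genes were lower. LYS20, a homocitrate synthase gene, read 1493, 1554 and 1560 in the wild type, 1771, 1645, 2762 and 2571 at restreaking 1, and 834, 830 and 843 at restreaking 12. The 3 groups did not overlap, with restreaking 12 lowest. LYS20 fell 2.52-fold between the restreakings (log2 change -1.34, adjusted p = 0.000132), and its paralog LYS21 1.35-fold (adjusted p = 0.000958). All 6 lysine genes were higher in replicates 3 and 4 of restreaking 1, which express LYS2, than in replicates 1 and 2. Without replicates 3 and 4 the fall of LYS20 was smaller and still called (log2 change -1.02, adjusted p = 9.47e-08), and that of LYS21 was -0.34 (adjusted p = 0.00133). LYS9 was called at -0.72 (adjusted p = 0.0382) and without these replicates stood at -0.22 (adjusted p = 0.0339), and its call was lost without any of 7 single arrays (highest adjusted p = 0.11). Outside the lysine branch, ARG3, of ornithine carbamoyltransferase, fell 1.42-fold (1163 ± 75.2, SD, n = 4, to 814 ± 28.5, SD, n = 3, adjusted p = 0.00182), and ASN1, of asparagine synthetase, 1.16-fold (adjusted p = 0.00246). ARO3, of the aromatic genes, and BNA1 were also among the 9. Their calls were lost without any of 5 and 3 single arrays (highest adjusted p = 0.0927 and 0.108). With 1 array left out, the number of target enzymes called ranged from 6 to 14. The 14, all lower, came without replicate 1 of restreaking 1.

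The genes whose pattern was most like that of GCN4 were sought among 5287 other genes above background on all 10 arrays, by Pearson correlation of log2(intensity + 16). The arrays fall into wild type and sua5D, so a correlation over all 10 mostly restates that difference: 237 genes had r over 0.95 with GCN4 and 236 had r under -0.95. The highest were ILV3, a dihydroxyacid dehydratase gene (r = 0.993, rho = 0.927), TRP2, of anthranilate synthase (r = 0.990, rho = 0.964), ICE2, of the endoplasmic reticulum (r = 0.987, rho = 0.939), HOM2, of aspartic beta-semialdehyde dehydrogenase (r = 0.985, rho = 0.952), and TDA5 (r = 0.982, rho = 0.927). Over the 7 sua5D arrays alone their r with GCN4 was 0.974, 0.953, 0.894, 0.896 and 0.943. These 7 arrays were among the 10 used to pick the genes, so the values are not independent of the choice. How many other genes reach such values there was not counted. The lowest were YGK3, a kinase gene (r = -0.992), USO1, of vesicle transport (r = -0.990), and BBC1, of actin patches (r = -0.989). The ranking was fragile: after quantile normalization 0 of the 5 highest stayed among the 5 highest, and without 1 array between 1 and 5 of them did.

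For PCL5 the likeness was less specific, with 1040 genes over 0.95 and 793 under -0.95. Its highest were YNL034W, the respiration regulator HAP4, ARG7, RTS3 and the malate dehydrogenase gene MDH2, each at r = 0.999, with Spearman's rho of 0.939, 0.927, 0.879, 0.83 and 0.903. Within the 7 sua5D arrays, which were again part of the choice, their r with PCL5 was 0.73, 0.831, 0.493, 0.475 and 0.639. The lowest were the phosphate transporter gene PHO84, VTC3, of polyphosphate synthesis, and ERG6, of ergosterol synthesis, each at r = -0.999. These correlations are descriptions over 10 arrays that share 3 groups.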

How the data were processed

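The deposited values were 1 linear intensity per probe set and array, and no label names the software with which the authors summarised probes. The deposited arrays share one scale: the mean without 2% of probe sets at each end was 500.2 on all 10 arrays. Of 10928 probe sets, 7244 had 1 gene in the platform annotation, 1 had several and 3683 had none. Matching by gene identifier to RefSeq's R64 table gave 5498 probe sets and 5449 genes, and the brightest probe set stood for each of 47 genes with several. The 1746 probe sets of another species set each array's background limit (percentile 95, 10.8 to 17.5). The tested genes had a median intensity of 602 to 666 per array, and 97.7% to 99.1% lay above the limit.

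Groups came from the sample titles. limma 3.58.1 in R 4.3.3 fitted log2(intensity + 16) with 1 mean per group over all 10 arrays, with an intensity trend and two-sided tests, and was tested on simulated data. The alternatives were pseudocounts of 1 and 64, other scalings, a filter on dim genes (above background on at least 3 arrays), all probe sets of a gene, no trend, only the compared groups, the replicate number, and leaving out arrays. The number of arrays limits the precision. Named genes were the 10 members, SUA5, up to 4 genes per list and comparison with the smallest adjusted p among called genes whose groups did not overlap, and the 5 most and 3 least like GCN4 and PCL5. The lysine genes LYS1, LYS2, LYS9 and LYS12, with MET17, HIS1, HIS7, HIS4, TRP5 and LEU9, were added after their values were seen. So were ARO3, BNA1, MED2, SWI1, MBF1, SNF2 and the uncalled values of named genes. Members and lists were chosen with earlier results of these data known. A planned promoter motif search was not run.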

Additional observations from a re-analysis of the deposited data

Results flagged for a closer look

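GCN1, the activator of the kinase Gcn2, was the only one of the 10 genes whose change against the wild type differed between the restreakings by a test of the difference itself. Its log2 change was -0.66 at restreaking 1 and -0.52 at restreaking 12, a difference of 0.13 (limma, adjusted p = 0.0399). This is the comparison between the restreakings given above and not a further test, because the wild type cancels out. The call was not stable and was lost in 12 of 21 alternatives. GCN1 read 1977 to 2083 on the 4 arrays of restreaking 1 and 2167 to 2285 on the 3 of restreaking 12. No array of restreaking 1 stood apart from the other 3 for any of the 10 genes by Dixon's criterion.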

How the results depend on the processing

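Over 21 alternatives, the number of the 10 genes called against the wild type was 9 or 10 in both comparisons, and the log2 change of PCL5 stayed between 2.07 and 2.30. From restreaking 1 to 12 the count of 1 (GCN1) became 0 by limma with equal array medians, after quantile normalization, without the intensity trend, with the replicate block and without replicates 1 and 2 of restreaking 1, with 4, 3, 2, 4 and 2 genes at an unadjusted p under 0.05, in that order. Leaving out 1 array gave 0 to 1. GCN1 itself lost its call in 12 of the 21 alternatives, also where the count stayed at 1 because another gene passed: GCN4 without replicate 1 of restreaking 1, and GCN3 without replicate 3 or without replicates 3 and 4. Leaving out 1 array gave between 6 and 14 target enzymes called from restreaking 1 to 12 (14 without replicate 1 of restreaking 1), and a log2 change of GCN4 of -0.104 to -0.0582 between restreakings. The log2 change of SUI2 at restreaking 1 turned to -0.0701 with equal medians and ranged from -0.0091 (without wild-type replicate 1) to 0.0757 with 1 array left out, and that of GCD2 between restreakings turned from 0.0089 to -0.0012 after quantile normalization and ranged from -0.0191 (without replicate 1 of restreaking 12) to 0.0294 with 1 array left out. SUI2 at restreaking 1 passed after quantile normalization (0.1355, adjusted p = 0.0134). None of the other SUI2 and GCD2 values given here passed the test, and the cause was not tested. Arrays with the same replicate number did not deviate together (correlations of -0.271 to 0.08 over genes), so the number does not pair them, and the replicate block changed no other call of the 10 genes.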
